A study of Mus musculus with 10 samples.

Results

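The genes described here encode the nuclear subunits of respiratory complexes II, III, IV and V of the mitochondrial inner membrane, together with cytochrome c. They were taken by gene symbol from a fixed list of 39 names, whatever their values: 4 genes of complex II, 9 of complex III, cytochrome c itself, 10 of complex IV and 15 of complex V. All 39 were among the 27376 gene names of the array, through 56 probes of the 41174 that were not controls, and all 39 were well above background on every array and entered the test. Complex II oxidises succinate and passes its electrons to ubiquinone, complex III passes them to the small carrier cytochrome c, and complex IV passes them to oxygen. Complexes III and IV pump protons as they do so, and complex V, the ATP synthase, lets the protons back through a rotor and makes ATP. Neurons depend on this pathway for most of the ATP that ion pumping and synaptic transmission consume.

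Expression was measured in hippocampal tissue of adult ICR mice, an outbred laboratory stock, on 1-colour microarrays with 1 animal per array. In the HE group, 5 animals were offspring of dams given estradiol valerate, an ester from which estradiol is released, by mouth in corn oil at 100 µg/kg/day between E5.5 and E11.5 of gestation. In the NC group, 5 animals were offspring of dams given corn oil over the same days. All animals carried the label male and no genetic change, and neither the litter nor any shared dam is stated, so the p-values speak of the spread among these 10 animals and no further.

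Array-wide features touch every result below. The 75th percentile of the signal ran from 898 to 1277 between arrays, 70.3% to 78.8% of probes were well above background, and no spot was saturated. The arrays lay on 3 slides in an unbalanced way: HE 3, HE 4 and HE 5 were on slide 3, HE 1 and HE 2 shared slide 2 with NC 5, and the remaining 4 NC arrays were on slide 1. Xist, the RNA of the inactive X chromosome, was high on 7 of the 10 arrays (HE 1 to HE 3 and NC 1 to NC 4), against their label. The mean level of 7 liver markers was -1.13, -1.54 and -1.62 on NC 1, NC 2 and NC 4 and -4.30 on NC 5. It was -6.14 on NC 3 and -7.28 to -5.15 on the HE arrays, so that NC 5 also lay above all HE arrays. One of the 7, Ttr, is a choroid plexus marker as well, and it read 3.77 on HE 2 and 4.24 on NC 3. The mean of 5 choroid plexus markers, Ttr among them, ran from -1.75 to 1.83 on HE arrays and from -1.99 to 2.23 on NC arrays. Levels are given as log2 of the processed signal relative to the 75th percentile of the same array, and a log2 fold change is HE over NC. A gene was called where limma's adjusted p over all 20083 genes tested lay under 0.05.

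None of the 39 genes was called higher in HE, 7 were called lower, and 32 did not pass. The 7 were Uqcrh and Uqcr10 of complex III, Cox5b of complex IV, and Atp5h, Atp5j, Atp5k and Atp5o of complex V. Their falls were small, between 1.20-fold for Atp5j and 1.36-fold for Uqcrh. The 7 made up 17.9% of the members, beside 13.9% of all genes tested that were called lower, and the 0 called higher stood beside 6.48% of all genes called higher. The share called lower was thus close to that of the array at large. For 6 members (15.4%) all 5 HE arrays lay below all 5 NC arrays, as they did for 10.9% of all genes. These were Uqcrc2, Uqcrh, Uqcr10, Atp5j, Atp5k and Atp5o.

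The fitted change was below 0 for 31 members and above 0 for 8. The median over the 39 was a log2 fold change of -0.16, beside -0.06 over all genes tested. The members were bright: 35 of the 39 were among the 1000 genes of highest mean level. Their median level was 5.99 in HE and 6.11 in NC, beside -0.97 and -0.90 over all genes. The members are thus set beside genes that were mostly dimmer, and the part of signal level in the difference was not tested. With slide as a block, which leaves the comparison of HE 1 and HE 2 with NC 5, the median of the members was -0.29 and that of all genes -0.14, and none of the members passed. This blocked comparison has 1 NC array, NC 5, which had low Xist while both HE arrays had high Xist. NC 5 also had the lowest mean of neuronal markers of the 10 arrays, 3.95. Its means of thalamic, astrocyte and red cell markers, 1.45, 3.85 and 5.15, were the highest of the 10. Group cannot be told apart from Xist level or these marker levels in any value with slide as a block. The sign of the median depended on the scaling: it was -0.09 after quantile normalization and in the authors' deposited value table, but 0.05 where arrays were centred on the median probe, where all genes had 0.16, and 0.09 after normexp background correction, where all genes had -0.29. The members' median minus that of all genes was -0.106 as reported, -0.105 after quantile normalization, -0.104 in the value table and -0.106 when centred on the median probe, but 0.376 after normexp. Without a filter on dim probes it was -0.00582, all 27376 genes then having a median of -0.156. It was -0.0514 on the arrays with high Xist and -0.164 without NC 1, NC 2 and NC 4. In tissue RNA, fewer cells of a type and less RNA per cell cannot be told apart.

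**Figure D1:**
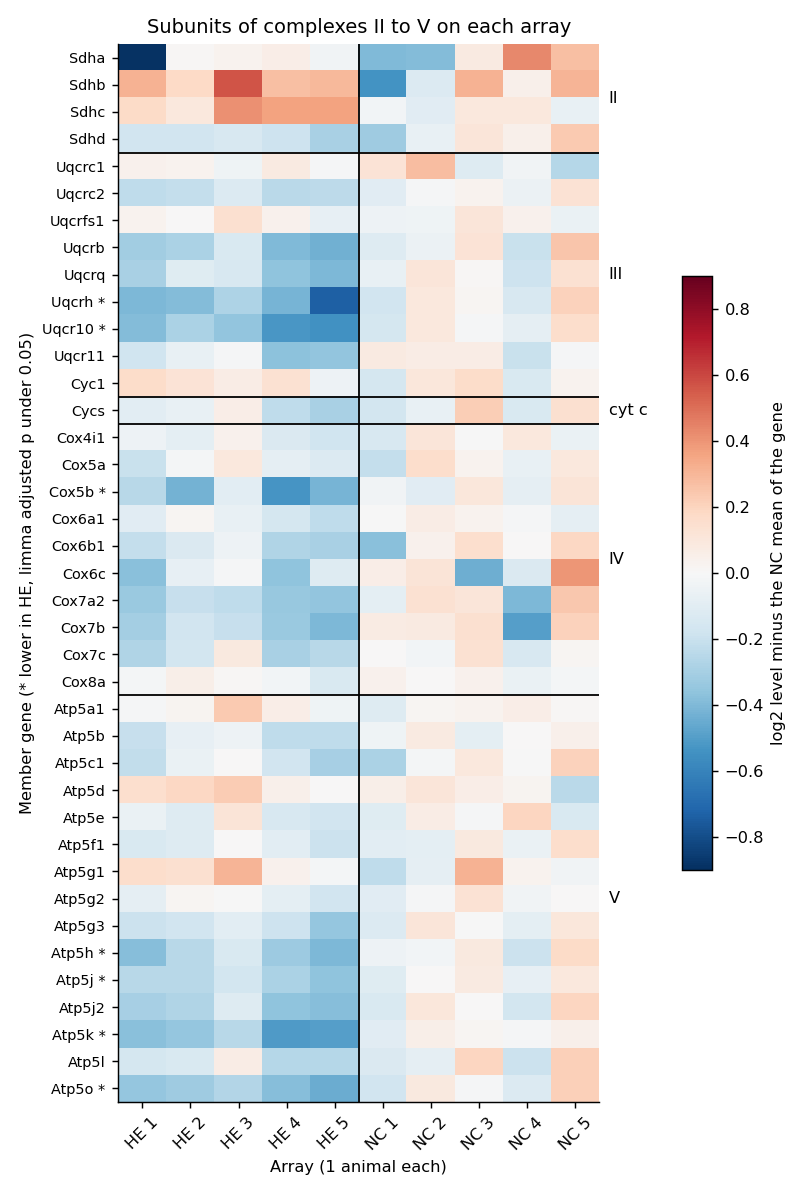
Level of each member gene on each array, as the log2 difference from the NC mean of the same gene, with HE arrays left and NC arrays right and genes grouped by complex (II, III, cytochrome c, IV and V). Blue marks a level below the NC mean and stars mark the 7 genes called lower in HE, a direction that holds under the 75th percentile, quantile and value table scalings and is absent when normexp values are centred on the median probe; complex II has 2 genes fitted above 0, Sdhb and Sdhc, and complex IV has none.

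Promoters of 3 members called lower and of Cycs, which was not called, are shown because they hold sites of known regulators of respiratory genes. Sequences are from RefSeq on GRCm38.p6, from 250 bases before to 50 bases after each transcript start, written 5′ to 3′ on the strand of the gene. Capitals mark the letters CGCATGCG, the core of the site of nuclear respiratory factor 1 (NRF1), in Atp5k, Atp5j and Cycs. They mark AAGATGGCG, a YY1 site, in Atp5j as well, and the reverse complement of the ETS-family letters CCGGAAGT, read by the factor GABP, in Uqcrh.
Atp5k, chr5:108434350-108434649, minus strand: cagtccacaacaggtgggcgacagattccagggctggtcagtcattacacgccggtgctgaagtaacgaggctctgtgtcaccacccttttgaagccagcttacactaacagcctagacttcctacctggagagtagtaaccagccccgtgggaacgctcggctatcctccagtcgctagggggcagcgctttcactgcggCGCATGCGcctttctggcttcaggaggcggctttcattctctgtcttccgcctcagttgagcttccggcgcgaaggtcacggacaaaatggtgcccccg
Atp5j, chr16:84834927-84835226, minus strand: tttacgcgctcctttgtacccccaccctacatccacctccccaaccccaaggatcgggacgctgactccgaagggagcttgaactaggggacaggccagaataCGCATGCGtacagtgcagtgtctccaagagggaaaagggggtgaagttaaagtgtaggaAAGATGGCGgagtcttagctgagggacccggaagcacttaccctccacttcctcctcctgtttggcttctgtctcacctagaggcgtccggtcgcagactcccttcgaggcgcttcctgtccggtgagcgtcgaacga
Uqcrh, chr4:116075021-116075320, minus strand: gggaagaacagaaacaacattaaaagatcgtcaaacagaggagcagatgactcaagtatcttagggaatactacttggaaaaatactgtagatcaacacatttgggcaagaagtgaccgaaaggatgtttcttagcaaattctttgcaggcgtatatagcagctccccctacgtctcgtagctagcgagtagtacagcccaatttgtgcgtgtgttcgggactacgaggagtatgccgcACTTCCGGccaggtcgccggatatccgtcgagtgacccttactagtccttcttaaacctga
Cycs, chr6:50566520-50566819, minus strand: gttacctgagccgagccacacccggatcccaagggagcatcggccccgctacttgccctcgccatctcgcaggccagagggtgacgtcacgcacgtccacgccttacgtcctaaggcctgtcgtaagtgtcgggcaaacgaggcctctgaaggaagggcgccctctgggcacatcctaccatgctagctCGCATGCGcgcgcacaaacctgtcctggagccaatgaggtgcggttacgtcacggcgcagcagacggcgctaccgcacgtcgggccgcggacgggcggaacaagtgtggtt
The Atp5j window shown lies inside the span that RefSeq gives to the neighbouring gene Gabpa, which encodes the DNA-binding subunit of GABP. A second Atp5j window, at chr16:84835576-84835875, holds none of the searched letters. Of the other members called lower, Atp5h holds the ETS letters and is not shown. Uqcr10, Cox5b and Atp5o hold none of the searched letters.

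Of the 39 members, 31 had a promoter of 300 bases among those searched, with 34 promoters in all. Promoters on chromosome 18, where the Atp5a1 probes lie, were left out of the search and of the counts over all promoters. Both strands were searched, and motifs were counted once per promoter. The NRF1 core occurred in 8 of the 34 (23.5%) and in 615 of all 32851 promoters (1.87%). Its 8 genes were Atp5g2, Atp5j, Atp5k, Atp5l, Cox6a1, Cycs, Uqcr11 and Uqcrc1, of which Atp5j and Atp5k were called lower and the other 6 did not pass. The ETS letters occurred in 4 promoters (11.8%, beside 3.89% of all): Atp5h, Cox8a, Uqcr11 and Uqcrh. The site of the estrogen-related receptors, TCAAGGTCA, was found in Atp5g3 and Sdhd (5.88%, beside 0.423% of all), and the YY1 letters in Atp5j and Atp5j2 (5.88%, beside 1.4%). The estrogen response element, GGTCA and TGACC with any 3 bases between them, was in 0 of the 34 and in 0.07% of all promoters, which says only that these letters are not in these windows. The searched letters of different factors did not overlap in the promoters printed, and a match is a description of letters.

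Complex II, the 4-subunit succinate dehydrogenase that also belongs to the citric acid cycle, had no member that passed. Its median log2 fold change was 0.06, and 2 of its genes were fitted above 0 and 2 below. Sdhc, a membrane anchor of the complex, had the smallest p of the 4. It read 3.43, 3.35, 3.67, 3.62 and 3.62 on HE 1 to HE 5, against 3.23, 3.16, 3.35, 3.35 and 3.19 on NC 1 to NC 5. The fit gave 0.28 ± 0.09 (SE, adjusted p = 0.0541), and HE 2 lay within the NC range. It was 0.20 with slide as a block.

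Sdhb, the iron-sulfur subunit, read 3.39, 3.26, 3.64, 3.35 and 3.37 in HE, against 2.54, 2.95, 3.39, 3.12 and 3.38 in NC. The fit gave 0.32 ± 0.16 (SE, adjusted p = 0.18), the groups overlapped, and NC 1 was the low array. With slide as a block the value was -0.06. Sdha, the flavoprotein that holds the succinate site, read 2.03, 2.93, 2.95, 2.98 and 2.88 in HE, against 2.52, 2.52, 2.99, 3.35 and 3.19 in NC. Array HE 1 stood well below the other 4 HE arrays, and the fitted value of -0.16 ± 0.23 (SE) became 0.02 without it. With slide as a block, a comparison that includes HE 1, Sdha had -0.71 and the median of complex II was -0.23. Sdhd, the other membrane anchor, had -0.19 ± 0.11 (SE, adjusted p = 0.216).

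In complex III, Uqcrh and Uqcr10 fell and the remaining 7 genes did not pass. The median over the 9 was -0.21. Uqcrh, the hinge protein that contacts cytochrome c1, read 6.99, 7.002, 7.12, 6.97 and 6.66 in HE, against 7.22, 7.49, 7.41, 7.25 and 7.60 in NC. All HE arrays lay below all NC arrays, with HE 5 the low one. The log2 fold change was -0.45 ± 0.11 (SE, adjusted p = 0.0245). It was -0.61 with slide as a block (adjusted p = 0.154). Its probe starts at base 412 of the transcript (mm9 chr4:115739644-115739703, minus strand), and a second probe from base 254 fell by 0.47 as well.

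Uqcr10, a small supernumerary subunit, read 6.57, 6.67, 6.599, 6.43 and 6.41 in HE, against 6.79, 7.05, 6.94, 6.87 and 7.11 in NC. The groups did not overlap. The log2 fold change was -0.42 ± 0.09 (SE, adjusted p = 0.0168), and -0.50 with slide as a block (adjusted p = 0.141). Its probe lies at mm9 chr11:4602056-4602115, minus strand. Among the members that did not pass, the supernumerary subunits Uqcrb and Uqcrq and the core subunit Uqcrc2 had values of -0.31, -0.26 and -0.21, with adjusted p of 0.0631, 0.0785 and 0.071.

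Both nuclear redox subunits of complex III had fitted changes near 0. Uqcrfs1, the Rieske iron-sulfur protein, read 4.42, 4.40, 4.54, 4.43 and 4.32 in HE, against 4.35, 4.35, 4.498, 4.43 and 4.34 in NC, a change of 0.03 ± 0.08 (SE). Cyc1, which is cytochrome c1, read 5.24, 5.20, 5.14, 5.21 and 5.03 in HE, against 4.91, 5.17, 5.24, 4.93 and 5.10 in NC, a change of 0.09 ± 0.09 (SE). The groups overlapped for both, and the 95% intervals of the changes, -0.14 to 0.20 and -0.11 to 0.29, held 0. The core protein Uqcrc1 had 0.02 and the supernumerary Uqcr11 had -0.20.

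Cycs, the somatic cytochrome c that carries electrons between complexes III and IV, read 4.82, 4.85, 4.98, 4.69 and 4.62 in HE, against 4.75, 4.85, 5.14, 4.78 and 5.06 in NC. The groups overlapped. The log2 fold change was -0.13 ± 0.11 (SE, adjusted p = 0.433), and its other 2 probes had -0.05 and 0.02.

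Complex IV, cytochrome c oxidase, had all 10 nuclear members fitted below 0, with a median of -0.18, and 1 of them passed. That was Cox5b, a subunit on the matrix side. It read 7.21, 7.03, 7.36, 6.93 and 7.04 in HE, against 7.43, 7.36, 7.56, 7.38 and 7.58 in NC, and HE 3 lay within the NC range. The fit gave -0.34 ± 0.10 (SE, adjusted p = 0.0393), and -0.45 with slide as a block (adjusted p = 0.231). Its probe lies at mm9 chr1:36750107-36750166.

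Cox4i1, the ubiquitous form of subunit 4, through which ATP and ADP modulate the enzyme, read 7.40, 7.36, 7.48, 7.32 and 7.27 in HE, against 7.31, 7.56, 7.45, 7.54 and 7.38 in NC. The groups overlapped, and the change was -0.08 ± 0.08 (SE, adjusted p = 0.507). The other 8 small subunits did not pass and ran from -0.29 for Cox7a2 and -0.29 for Cox7b to -0.02 for Cox8a. Cox7b is X-linked and Cox7a2 has 2 probes at the same place, of which the one that stands for the gene had an adjusted p of 0.11 and the other was called lower at -0.29. On NC 4, Cox7b, Cox7a2 and Cox6c read 5.89, 5.84 and 6.27, below the median of their NC arrays.

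**Figure D2:**
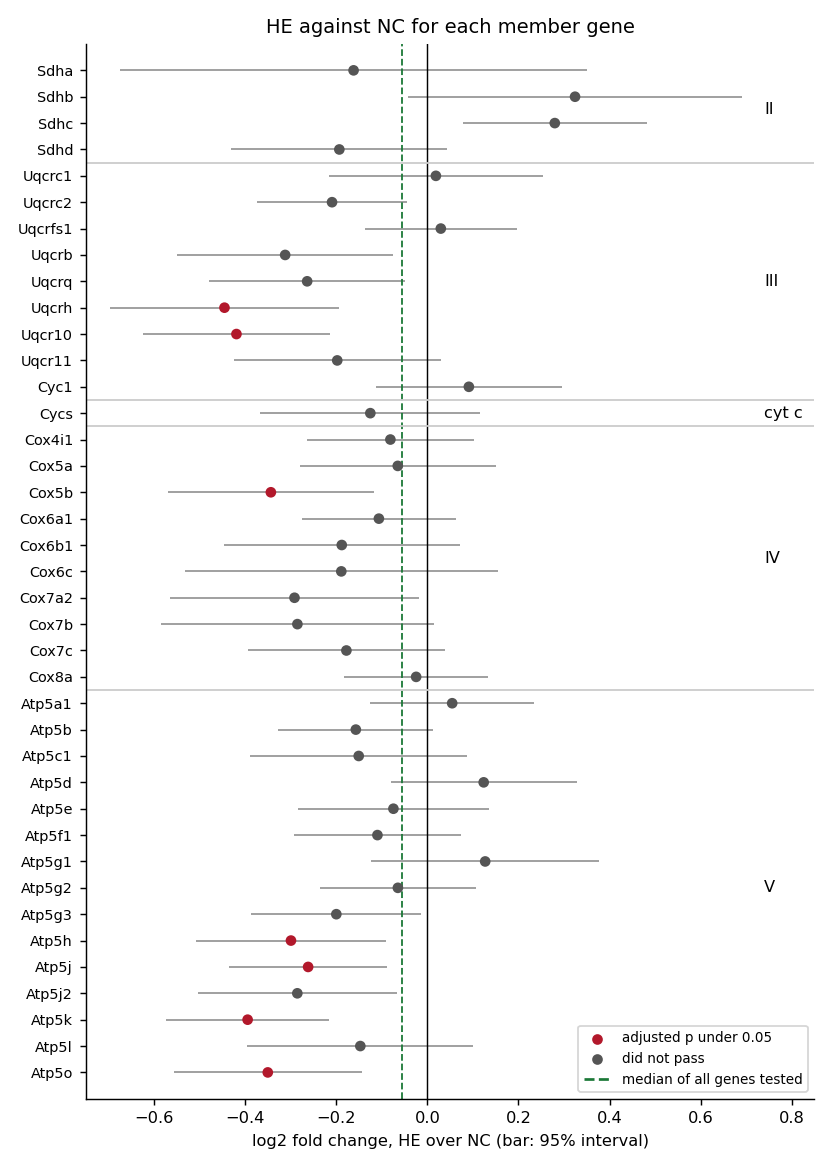
Log2 fold change of each member, HE over NC, with its 95% interval from limma, grouped by complex. Red points mark the 7 members called lower, at -0.45 to -0.26 under the 75th percentile scaling, and the dashed line marks the median of all genes tested at -0.06; under normexp values centred on the median probe the same 7 lie above 0.

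Complex V had 4 members called lower and 11 that did not pass, with a median of -0.15. The ATP synthase is built from a catalytic F1 head, a ring of c subunits that turns in the membrane, a peripheral stalk that holds the head still, and further Fo subunits in the membrane. The 4 calls lay in the stalk (3 of 4 genes) and among the further Fo subunits (1 of 3), and 0 of 5 head genes and 0 of 3 c-ring genes were called. The difference between these parts was not tested.

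In the stalk, Atp5o, the oligomycin sensitivity-conferring protein at the top of the stalk, read 6.09, 6.11, 6.17, 6.05 and 5.98 in HE, against 6.26, 6.52, 6.42, 6.31 and 6.65 in NC. The log2 fold change was -0.35 ± 0.09 (SE, adjusted p = 0.0286) and the groups did not overlap. Atp5j, coupling factor 6, read 6.30, 6.30, 6.39, 6.27 and 6.19 in HE, against 6.44, 6.56, 6.64, 6.48 and 6.65 in NC. The change was -0.26 ± 0.08 (SE, adjusted p = 0.0403), again with no overlap. Atp5h, subunit d, read 6.48, 6.61, 6.72, 6.53 and 6.46 in HE, against 6.81, 6.84, 6.94, 6.67 and 7.03 in NC, where NC 4 lay below HE 3. Its change was -0.30 ± 0.09 (SE, adjusted p = 0.0481), and its second probe fell by 0.30 as well. With slide as a block the 3 values were -0.55, -0.35 and -0.49, with adjusted p of 0.119, 0.224 and 0.162. Atp5f1, subunit b and the long helix of the stalk, had -0.11 ± 0.08 (SE) and did not pass.

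Atp5k, subunit e at the interface where ATP synthase dimers meet, read 5.36, 5.38, 5.48, 5.22 and 5.23 in HE, against 5.63, 5.78, 5.75, 5.72 and 5.78 in NC. The groups did not overlap, HE 3 and NC 1 being the nearest arrays. The fit gave -0.39 ± 0.08 (SE, adjusted p = 0.0140), and -0.41 with slide as a block (adjusted p = 0.188). Its probe is placed on an unassigned segment of chromosome 5 in mm9, while Atp5o and Atp5j both have probes on chromosome 16, at chr16:91925539-91925598 and chr16:84828176-84828235, and Atp5h on chr11:115277134-115277193. The other Fo subunits were Atp5j2, subunit f, at -0.29 (adjusted p = 0.0635) and Atp5l, subunit g, at -0.15, and neither passed.

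The F1 head lay near the array-wide median. Atp5a1, the alpha subunit, read 5.98, 6.01, 6.23, 6.05 and 5.95 in HE, against 5.87, 6.005, 6.02, 6.05 and 5.999 in NC, a change of 0.05 ± 0.08 (SE). Atp5b, the beta subunit that holds the catalytic sites, read 7.20, 7.33, 7.36, 7.18 and 7.18 in HE, against 7.37, 7.48, 7.32, 7.40 and 7.45 in NC, a change of -0.16 ± 0.08 (SE, adjusted p = 0.165). The groups overlapped for both. The rotor subunits Atp5c1, Atp5d and Atp5e, which are gamma, delta and epsilon, had -0.15, 0.12 and -0.07.

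Subunit c is made from 3 genes whose mature proteins are the same and whose import sequences differ. Atp5g1 read 4.76, 4.75, 4.91, 4.64 and 4.59 in HE, against 4.38, 4.53, 4.92, 4.64 and 4.58 in NC, a change of 0.13 ± 0.11 (SE). Atp5g2 read 5.52, 5.62, 5.60, 5.51 and 5.43 in HE, against 5.503, 5.59, 5.73, 5.57 and 5.61 in NC, a change of -0.06 ± 0.08 (SE). Atp5g3 read 6.002, 6.02, 6.10, 6.01 and 5.85 in HE, against 6.08, 6.31, 6.19, 6.11 and 6.30 in NC, a change of -0.20 ± 0.08 (SE, adjusted p = 0.115). All 3 pairs of groups overlapped, and none of the 3 passed.

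Within each array, where scaling cancels, the stalk was set against the head. Each gene was taken relative to its own NC mean, and the mean of the 4 stalk genes minus that of the 5 head genes was -0.21, -0.23, -0.25, -0.19 and -0.21 on HE 1 to HE 5, against -0.01, -0.06, 0.04, -0.17 and 0.18 on NC 1 to NC 5. The HE arrays lay close together and the NC arrays were spread, with NC 4 near the HE range. The mean difference between the groups was -0.21, and over all alternatives it ran from -0.40 with slide as a block to -0.12 with the thalamic markers as a covariate. The parts were compared after the gene values had been seen, and this is a description without a test. The head alone overlapped between the groups, at -0.15 to 0.11 in HE, against -0.10 to 0.06 in NC.

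**Figure D3:**
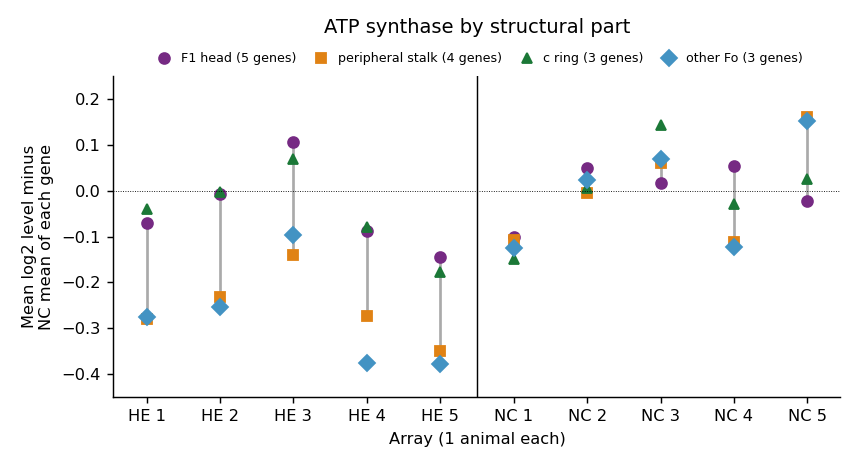
Mean log2 level of the 4 structural parts of ATP synthase on each array, each gene relative to its NC mean, HE arrays left and NC arrays right; grey lines join stalk and head within an array. Stalk minus head is -0.25 to -0.19 on the 5 HE arrays and -0.17 to 0.18 on the 5 NC arrays.

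**Figure D4:**
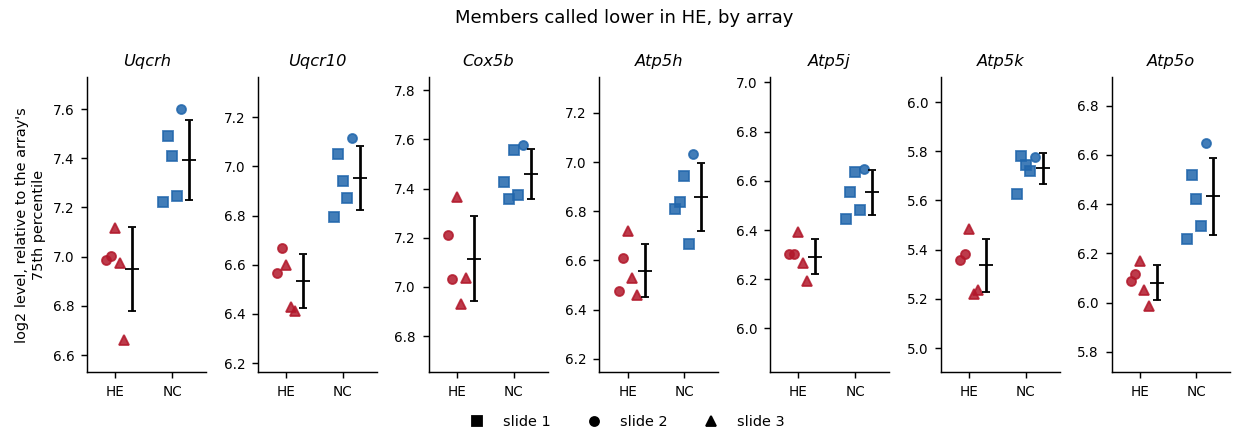
Levels of the 7 members called lower in HE, HE left of NC in each panel, as log2 relative to the 75th percentile of the array, with the mean and SD (n = 5) beside the points and the slide as the marker shape. The groups overlap for Cox5b and Atp5h and are apart for the other 5 under this scaling; NC 5, the 1 NC array on slide 2, is the highest or second highest NC array in each panel.

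The 7 calls differed in how far they held across the 29 alternative settings. Uqcr10 passed in 21 of them and Atp5k in 20, and both passed whichever single array was left out. Atp5o passed in 15 and Uqcrh in 14, while Atp5j passed in 8, and Atp5h and Cox5b in 7 each. All 7 were fitted below 0 in 28 of the 29, the exception being normexp values centred on the median probe. The number of members called lower fell to 2 without HE 1, without NC 2 or without NC 5, and to 3 without HE 4 or without HE 5. It was 4 without HE 2 or without NC 3, and 12 without NC 4. All genes called lower numbered 1483, 1413 and 1565 without HE 1, NC 2 or NC 5. They numbered 2821 without NC 4, beside 2795 with all arrays.

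Over single probes, 14 of the 56 were called, 25% of them, beside 23.2% of all 30978 probes tested, and 13 of the 14 were lower and 1 higher, where 15.5% of all probes were called lower and 7.71% higher. Several lay on the same transcript. The 3 probes on the Atp5b transcript gave different directions along it. The probe at base 455 read 1.58, 1.62, 1.895, 1.52 and 1.67 in HE, against 0.57, 0.91, 0.81, 0.79 and 1.21 in NC, a change of 0.80 ± 0.13 (SE, adjusted p = 0.00699) with no overlap. The probe at base 698 had 0.54 ± 0.19 (SE, adjusted p = 0.0603), and the probe at base 1689, which stands for the gene, had -0.16. The 3 probes lie on mm9 chromosome 10, at chr10:127521478-127522156, a span longer than the probe, chr10:127522569-127522628 and chr10:127527255-127527314. Another Atp5b probe, designed on an Ensembl transcript model, was called lower at -0.64.

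The difference between 5′ and 3′ probes was also measured over all RefSeq transcripts with several probes, from the first and last probe of each. Where 2 probes of 1 transcript started 500 to under 1000 bases apart, the change of the 5′ probe exceeded that of the 3′ probe by a median of 0.10 over 986 transcripts, and by 0.08 over 900 transcripts with 100 to under 500 bases between them. Under 100 bases the median was 0.01, and from 1000 bases on it was -0.05. The outermost Atp5b probes, at bases 455 and 1689, belong to this last group and differ in the other direction from its median. On single arrays the value at 500 to under 1000 bases was 0.01 to 0.09 on the 5 HE arrays, against -0.12 on NC 1 and NC 2 and -0.03 to 0.02 on the other 3 NC arrays. With this value as a covariate none of the members passed, and their median was -0.27. Over all 20083 genes tested with that covariate, 105 were called lower and 31 higher, and the median was -0.05. Whether the 5′ to 3′ value accounts for the Atp5b probes was not tested.

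Some probes were designed on other transcript models of the members. An Atp5j2 probe on a cDNA clone read -4.29, -4.04, -3.75, -3.88 and -2.97 in HE, against -2.31, -2.56, -2.68, -2.70 and -2.30 in NC, a change of -1.27 ± 0.22 (SE, adjusted p = 0.00857). A Sdha probe on a cDNA clone had -0.76 ± 0.19 (SE, adjusted p = 0.0207), while the 2 probes of its RefSeq transcript had -0.16 and 0.03. The clone and RefSeq probes of these genes thus did not give the same size of change. Many of these genes have processed pseudogenes in the mouse genome, and cross-hybridisation to such copies was not tested.

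Complex I, the entry point for electrons from NADH, had 11 of 37 subunits called lower and 0 higher, with a median of -0.24 beside -0.06 for all genes. Of all genes tested, 13.9% were called lower and 6.48% higher. In 13 of the 37 all HE arrays lay below all NC arrays, as they did for 10.9% of all genes. The smallest p belonged to Ndufb7 at -0.38 (adjusted p = 0.0134), Ndufa5 at -0.39 (adjusted p = 0.0156) and Ndufa4 at -0.32 (adjusted p = 0.0278), which are accessory subunits, Ndufa4 being counted with complex IV in later work. With slide as a block, which rests on NC 5 alone among NC arrays, the median of the 37 was -0.36, beside -0.14 for all genes. With the thalamic markers as a covariate 0 of the 37 passed, where 0 of all 20083 genes were called lower and 1 higher. The count was 10 after quantile normalization and in the authors' deposited value table, 0 after normexp, with a median of -0.02, and 0 when centred on the median probe, with a median of -0.03. It was 1 with the replicate block. Leaving out 1 array gave 2 without HE 1, HE 4, HE 5, NC 2 or NC 5, 4 without NC 3, 6 without HE 2, 7 without HE 3, 14 without NC 4 and 16 without NC 1. All genes called lower then ran from 1413 without NC 2 to 2821 without NC 4, beside 2795 with all arrays.

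The other genes of the pathway gave few calls. Of 25 assembly factors tested, Cox10, which makes the heme A precursor for complex IV, was higher at 0.77 (adjusted p = 0.00576), Sco1, a copper chaperone for complex IV, was lower at -0.29 (adjusted p = 0.0318), and the third by p was Coa5 at 0.28 (adjusted p = 0.0777). Of 14 tissue isoforms and associated proteins, Atpif1, the inhibitor of the ATP synthase, was lower at -0.32 (adjusted p = 0.0236), while Cox7a2l and Cox6a2 had -0.28 and -0.91 and did not pass. Of 17 genes of the citric acid cycle and pyruvate dehydrogenase, 0 were called by limma, 2 had an unadjusted p under 0.05, and Idh3g and Idh3b, subunits of isocitrate dehydrogenase, had -0.20 and 0.28.

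Of 11 carriers and porins, Ckmt1, the mitochondrial creatine kinase of brain, was lower at -0.47 (adjusted p = 0.0212), Mpc1, a subunit of the pyruvate carrier, was lower at -0.28 (adjusted p = 0.047), and the phosphate carrier Slc25a3 had 0.39 (adjusted p = 0.0611). Of the mitochondrially encoded subunits, 4 were tested, ND4, COX2, CYTB and ATP6, with values of -0.25 to -0.19, and 0 passed in limma although all 4 had an unadjusted p under 0.05. The files place the COX2 and ATP6 probes on chromosome 1, where the mouse genome holds a nuclear copy of mitochondrial DNA. Among 16 regulators of mitochondrial biogenesis, the estrogen-related receptors Esrrg and Esrrb, orphan nuclear receptors, were lower at -0.79 (adjusted p = 0.00435) and -1.42 (adjusted p = 0.00666), and Gabpb1, the activating subunit of GABP, was higher at 0.39 (adjusted p = 0.0254).

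Markers of neighbouring tissue moved between the same arrays. Of 16 thalamic and habenular markers tested, 10 were called lower in HE and 0 higher, with a median of -1.66, and their mean level ran from -0.88 to 0.60 on HE arrays, against 0.48 to 1.45 on NC arrays. Of these 16, Shox2 was well above background on 1 HE array and 5 NC arrays, and Gpr151 on 3 HE arrays and 0 NC arrays. With the thalamic mean as a covariate 0 of the 39 members passed, with a smallest adjusted p of 0.265, and their median was -0.17. Over all 20083 genes tested with that covariate, 1 was called higher and 0 lower, and the median was -0.03. Of 13 myelin markers 10 were lower, with mean levels of 2.40 to 2.77 in HE, against 3.20 to 3.69 in NC and none of them at background, and their part in the members' result was not tested. Hippocampal pyramidal and granule markers were well above background in both groups, in all 8 genes. Of these, 5 were fitted above 0, with Pou3f1 called higher at 1.36, and 3 below 0, among them Prox1 at -0.89 (adjusted p = 0.0526), which did not pass.

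Markers of other cell types gave single calls. Of 10 neuronal markers, Rbfox3 was called higher at 0.93 and 0 lower, and of 7 microglial markers, Cx3cr1 was called higher at 0.63 and 0 lower. Of 8 astrocyte markers, S100b and Aqp4 were called lower at -0.85 and -0.89, and of 3 red cell markers, Hbb-b1 was called lower at -1.01, with a list median of -1.18. Of 6 endothelial and pericyte markers, 0 were called by limma, and 3 had an unadjusted p under 0.05. The mean level of the neuronal list was 4.67 to 4.83 on HE arrays, against 3.95 to 4.71 on NC arrays, that of the astrocyte list 3.01 to 3.37 in HE, against 3.25 to 3.85 in NC, and that of the red cell list 2.97 to 3.93 in HE, against 3.52 to 5.15 in NC. The microglial list had 1.15 to 1.66 in HE, against 0.99 to 1.48 in NC. The part of these lists in the members' result was not tested.

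The counts were also taken without the arrays in doubt. Without NC 1, NC 2 and NC 4, where liver transcripts were highest, 5 members were called lower, 0 were called higher and the median was -0.26. Of all 19870 genes tested there, 1150 were called lower and 878 higher, and the median was -0.09. NC 5 and its lower liver signal were kept. Among the 7 arrays with high Xist, 0 members passed and the median was -0.08, beside -0.03 for all genes. Of all genes on those arrays, 94 were called lower and 12 higher. With Xist as a covariate 4 members were called lower and the median was -0.15. Over all genes 3017 were called lower there, with a median of -0.07.

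**Figure D5:**
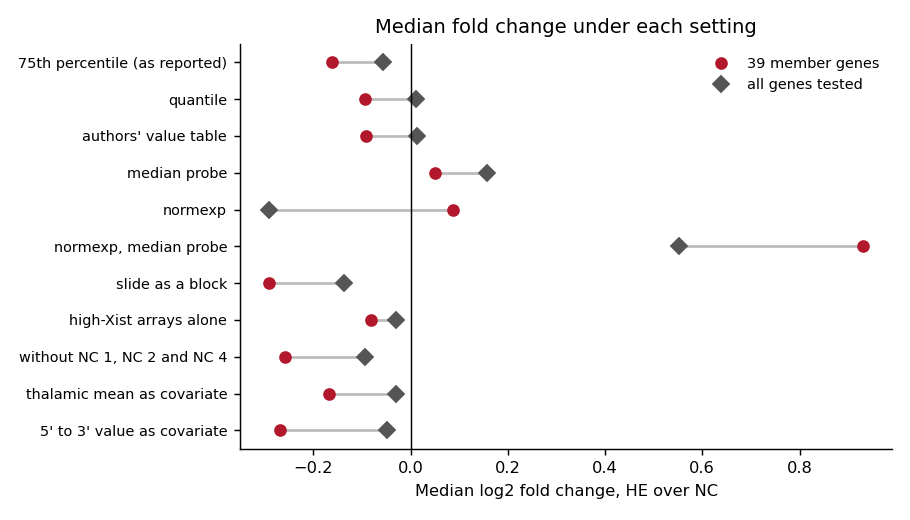
Median log2 fold change, HE over NC, of the 39 members (red circles) and of all genes tested (grey diamonds) under 11 settings. The member median runs from -0.29 with slide as a block to 0.93 with normexp values centred on the median probe and lies above 0 in 3 settings; it lies below the median of all genes except in the 2 normexp settings.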

How the data were processed

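Hippocampal RNA of 10 animals was labelled with Cy3 and hybridised to 1-colour arrays, per the labels' protocols. Per the submitters' processing notes, the spots were quantified by Agilent Feature Extraction 10.7. The authors deposited scanner files of intensity on a linear scale, background-subtracted within each array per the file headers, and a table of log2 values whose making is not given in the sources used here; its columns followed quantile-normalized log2 processed signals with slopes of 1.0022 to 1.0026 and medians of 7.0334 to 7.0337.

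The processed intensity was put on the log2 scale and centred on the 75th percentile of each array. Spots flagged as outliers (68 to 129 per array) were left out. To be tested, a probe had to be well above background in 3 or more of 5 arrays in either group, and the probe of highest mean stood for its gene. HE was compared with NC by limma 3.58.1 (R 4.3.3, two-sided), with Benjamini-Hochberg adjustment over 20083 genes and a threshold of 0.05. The design has no block. Same-numbered animals correlated at -0.0762 to 0.127 in their deviations. For HE 3 and HE 4 the NC array of highest correlation bore the same number, and for the other HE arrays it did not. These correlations over whole arrays cannot show whether the numbers pair animals. No 2 arrays of a group were duplicates, the SD of their log2 differences being 0.444 to 0.722.

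Values on every array are given for members that passed, for the smallest p in a complex without one, for the catalytic and carrier subunits and for the 3 genes of subunit c, and of related lists the 3 with the smallest p. An item taken by this rule is not reported here. Single probes were named where the probes of a gene disagreed, after their values were seen, as were Pou3f1, Shox2, Gpr151 and the other named markers of cell types. The members and lists were chosen with earlier results of these data known. The alternatives were slide blocks, other scalings, filters, probe summaries and covariates, the replicate block, and leaving out arrays; the value of 5′ against 3′ probes as a covariate was chosen after seeing the data. Probe positions are on mm9 per the file headers.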

Additional observations from a re-analysis of the deposited data

Results flagged for a closer look

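Each member was checked for an array far from the other 4 of its group, by the gap to the nearest array as a share of the whole range of the group, against Dixon's limit at 95%. Of 78 groups of 5 arrays, 6 passed the limit, where chance gives about 1 in 20. Sdha on HE 1 read 2.03, against 2.88 to 2.98 on the other HE arrays, a ratio of 0.901. Cox7b on NC 4 read 5.89, against 6.46 to 6.59 on the other NC arrays, a ratio of 0.809. The remaining 4 departures were smaller in size. Sdhd on HE 5 read 4.25, against 4.36 to 4.40 (ratio 0.732), and Uqcrc2 on HE 3 read 5.62, against 5.51 to 5.53 (ratio 0.788). Atp5a1 on NC 1 read 5.87, against 5.999 to 6.05 (ratio 0.717), and Atp5d on NC 5 read 4.34, against 4.60 to 4.69 (ratio 0.758). None of the 6 genes was called between HE and NC.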

How the results depend on the processing

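The number of members called lower, 7 as reported, was 0 with slide as a fixed block, on slide 2 alone, after normexp with either centring, when centred on the median probe, on the arrays with high Xist alone, with the thalamic mean as a covariate and with the 5′ to 3′ value as a covariate. It was 4 after quantile normalization, in the value table, without a filter on dim probes and with Xist as a covariate, and 11 with an intensity trend and robust prior. All genes called lower in these settings numbered, in the same order, 2400, 2385, 2604 (of 27376 tested), 3017 and 3050. They numbered 7091 after normexp, 1864 after normexp centred on the median probe and 1744 centred on the median probe. With the thalamic mean as a covariate they numbered 0, and with the 5′ to 3′ value as a covariate 105. With the replicate block 2 members were called lower and 7 single probes passed, beside 2322 of all genes lower. Of all 30978 probes tested with that block, 1592 were called higher and 4205 lower. Whether the numbers pair the animals is not known. The number of members called higher, 0 as reported, was 1 with slide as a random block, after normexp, when centred on the median probe, with probes required on all arrays and with the trend, and 13 after normexp centred on the median probe. All genes called higher numbered, in the same order, 1398, 1788, 3329, 1362, 1505 and 7312. The setting with probes required on all arrays tested 17590 genes, and the others tested 20083. The members' median log2 fold change moved to -0.29 with slide as a fixed block and on slide 2 alone. It moved to -0.258 without NC 1, NC 2 and NC 4 and to -0.269 with the 5′ to 3′ covariate. It turned to 0.0504 when centred on the median probe, 0.0866 after normexp and 0.93 after normexp centred on the median probe. Single probes called, 14 of 56 as reported, were 9 of 56 without the filter, where 1831 of all 41174 probes were called higher and 4687 lower. Leaving out 1 array at a time gave 2 to 12 members lower, 0 to 1 higher and medians of -0.205 to -0.126. All genes called lower then numbered 1413 to 2821.

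Over all genes the share of calls that were higher was 31.8% as reported, 44.1% after quantile normalization, 44.5% in the value table, 65.6% centred on the median probe, 20.1% after normexp, 79.7% after normexp centred on the median probe and 55.6% with slide as a block. All genes called higher and lower numbered 1302 and 2795 as reported, 114 and 91 with slide as a block and 724 and 2322 with the replicate block.

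Of the 39 members, 31 were fitted below 0 as reported, 12 centred on the median probe, 10 after normexp, 0 after normexp centred on the median probe and 30 with slide as a block. Among the members named by the rule, signs turned as follows, and the cause was not tested. Centred on the median probe, Sdha was 0.0504, Cycs 0.0871, Cox4i1 0.131, Atp5b 0.0553, Atp5g2 0.148 and Atp5g3 0.0125. After normexp, Sdha was 0.107, Cycs 0.0975, Cox4i1 0.161, Atp5b 0.037, Atp5g2 0.136 and Atp5g3 0.109. After normexp centred on the median probe, Sdha was 0.95, Uqcrh 0.637, Uqcr10 0.674, Cycs 0.94, Cox4i1 1, Cox5b 0.737, Atp5b 0.88, Atp5g2 0.979, Atp5g3 0.952, Atp5h 0.719, Atp5j 0.80, Atp5k 0.686 and Atp5o 0.702. After quantile normalization Cox4i1 was 0.0592 and Uqcrfs1 -0.0228, and in the value table Cox4i1 was 0.0619, Atp5b 0.00393 and Uqcrfs1 -0.0209. With slide as a block and on slide 2 alone, Sdhb was -0.0561 and Atp5a1 -0.00397. With the mean of the probes, Atp5a1 was -0.0267 and Atp5b 0.135. With the 5′ to 3′ covariate, Sdhb was -0.115, Uqcrfs1 -0.0822, Atp5a1 -0.051 and Atp5g1 -0.185. Sdha was 0.347 with the thalamic covariate and, leaving out 1 array at a time, -0.261 to 0.0192, turning without HE 1; Cycs was 0.00147 on the arrays with high Xist, and Cyc1 was -0.0071 and Atp5g1 -0.0126 without NC 1, NC 2 and NC 4.

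The number of arrays, 5 in each group, limits the precision. Slide 1 held NC arrays and slide 3 held HE arrays alone, and outside slide 2 the effects of slide and group cannot be told apart.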
